A study of Mus musculus with 18 samples.

Results

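The genes described here are 37 genes of the cell cycle and of DNA replication in mouse tumours, picked by name from the 55291 genes of the table: 14 genes of S phase and of its onset, and 23 genes of G2 and mitosis. All 37 were in the table, and all 37 were among the 16816 genes tested, which had at least 1 TPM in at least 3 of the 18 libraries. TPM is a transcript level scaled by length that sums to the same total in every library. Whole tumours were sequenced after subcutaneous growth of CT26 cells, which derive from a BALB/c colon carcinoma, of CT26-NY-ESO-1 cells (CT26NYESO1 below), whose name adds the human cancer-testis antigen NY-ESO-1, or of LL/2 cells (LL2 below), the C57BL/6 tumour known as Lewis lung carcinoma. The labels name BALB/cJ and C57BL/6J mice as hosts, give no age or sex, and do not say which host carried which line. They name the source as the TME, the tumour microenvironment. No engineered host allele is named, and the labels do not state whether control tumours received a mock injection. For each line there were 3 libraries without treatment (Ctrl) and 3 from tumours given OK-432, a penicillin-treated preparation of Streptococcus pyogenes, for 24 hours (OK432), and tumours were taken on day 14. No label ties each library to a mouse of its own, so the tests measure the spread between libraries, which may be partly technical.

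A dividing cell first copies its DNA in S phase and then separates the copies in mitosis. At the onset of S phase, cyclin E with its kinase lets E2F factors switch on the replication genes, which include the Mcm2-7 helicase that opens the DNA, the clamp Pcna that holds the polymerase on it, and the enzymes that supply deoxynucleotides. In G2 the B-type cyclins, Cdk1 and the factor Foxm1 take over, followed by the mitotic kinases, the spindle motors and the anaphase regulators. In a tumour these transcripts come mostly from cycling cells, malignant or not, and in whole tissue fewer cycling cells and less RNA per cycling cell cannot be told apart.

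The libraries and their labels were checked first. Libraries of a group correlated across genes at a median Pearson r of 0.992, libraries of 1 line with and without OK-432 at 0.991, and libraries of different lines at 0.894. Genes are not independent replicates, and no pair of libraries was identical. The 5 markers of colon epithelium summed to 7.57 to 9.65 TPM in CT26 controls, 15.9 to 29.8 in CT26NYESO1 and 8.47 to 9.98 in LL2. Cdx1, Vil1 and Cdx2 were at or below 0.0663, 0.329 and 1.05 TPM as group means, and most of the sum was Lgals4 (7.86, 8.46 and 8.17 TPM) and, in CT26NYESO1, Krt20 (11.4 TPM). The 5 markers of lung epithelium summed to 18.8 to 21.8, 13.3 to 15.9 and 5.44 to 12.1 TPM in the same order, nearly all of it Napsa, and Nkx2-1 was listed at 0 in all groups. Epcam, an epithelial marker, was at or below 0.172 TPM, while the epithelial keratins Krt8 and Krt18 stood at 204 and 272 TPM in LL2 controls and at 0.149 and 0.203 TPM in CT26 controls. A gene that acts on the cell cycle set the libraries labelled CT26 apart. Cdkn2a encodes Cdk4/6 inhibitor p16Ink4a and the p53 activator Arf, and the CT26 line has been described as having lost it. In the libraries labelled CT26 it stood at 128, 105 and 109 TPM in the controls and at 111, 129 and 115 TPM with OK-432, against 1.07 to 1.91 TPM in CT26NYESO1 controls and 0 to 0.204 TPM in LL2 controls. What cells those transcripts came from was not tested. CT26 below means libraries with that label, and the difference between LL2 and CT26NYESO1 does not include them, although they enter the shared error of the fit.

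The genes share sequence words in their promoters that are known from cell cycle control. RefSeq windows from 250 bases before to 50 bases after the transcript start (GRCm38.p6) were at hand for 30 of the 37 genes, with 2 windows for Mcm7. Both strands were searched for TTTGAA, the core of the cell cycle homology region to which the MuvB complexes of late cell cycle genes bind, for CCAAT, the box bound by NF-Y, and for E2F-like words. The word TTCCCGC was searched together with its forms that read TTCGCGC or that read TTGCCGC. The remaining form was TTGGCGC. The word TTTGAA lay in the window of 13 of 18 G2 and mitosis genes and of 1 of 12 S phase genes (Mcm2), against 17.9% of all 32851 windows. An E2F-like word lay in 6 of 12 S phase genes, 4 of 5 Mcm genes among them, and in 3 of 18 G2 and mitosis genes, against 9.57% of all windows. CCAAT lay in 24 of the 30 genes against 37.4% of all windows, and at least 3 copies lay in 8 of 30 genes against 3.37%. A CCAAT overlapped an E2F-like word in the windows of Mcm7 and Ccnb1. Such matches describe letters and are not binding sites. The 8 stretches shown run from 150 bases before the start to 30 after it, 5′ to 3′ on the gene's strand, with matches to any of these motifs in capitals on either strand. They were chosen because both Mcm genes were below every control in all 3 treated CT26NYESO1 libraries, and because each of the other pairs shares a role but not its level between the tumour lines.
Mcm3: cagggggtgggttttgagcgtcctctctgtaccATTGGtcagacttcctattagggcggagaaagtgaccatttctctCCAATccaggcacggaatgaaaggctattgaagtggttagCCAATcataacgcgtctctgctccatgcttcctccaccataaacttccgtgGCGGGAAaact
Mcm6: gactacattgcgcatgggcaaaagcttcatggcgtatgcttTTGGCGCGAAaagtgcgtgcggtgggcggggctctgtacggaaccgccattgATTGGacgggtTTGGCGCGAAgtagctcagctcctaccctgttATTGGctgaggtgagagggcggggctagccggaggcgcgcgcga
Rrm1: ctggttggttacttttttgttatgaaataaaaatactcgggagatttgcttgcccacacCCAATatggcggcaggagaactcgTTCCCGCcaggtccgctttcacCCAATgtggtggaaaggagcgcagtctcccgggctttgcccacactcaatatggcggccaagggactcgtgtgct
Rrm2: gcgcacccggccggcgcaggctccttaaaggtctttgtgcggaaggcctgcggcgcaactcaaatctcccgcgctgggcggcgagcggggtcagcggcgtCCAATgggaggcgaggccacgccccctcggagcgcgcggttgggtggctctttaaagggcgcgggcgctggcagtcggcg
Ccnb1: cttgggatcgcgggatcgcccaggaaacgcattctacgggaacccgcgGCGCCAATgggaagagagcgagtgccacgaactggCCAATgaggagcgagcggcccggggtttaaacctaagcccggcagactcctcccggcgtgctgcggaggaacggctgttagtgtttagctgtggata
Ccnb2: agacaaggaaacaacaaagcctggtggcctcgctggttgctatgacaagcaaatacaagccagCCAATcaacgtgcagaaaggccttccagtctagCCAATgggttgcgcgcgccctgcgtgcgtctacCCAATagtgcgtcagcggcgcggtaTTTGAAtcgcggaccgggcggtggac
Mki67: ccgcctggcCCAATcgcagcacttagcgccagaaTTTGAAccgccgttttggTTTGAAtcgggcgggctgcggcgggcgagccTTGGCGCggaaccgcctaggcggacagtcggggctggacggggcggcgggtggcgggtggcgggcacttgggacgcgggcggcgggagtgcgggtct
Top2a: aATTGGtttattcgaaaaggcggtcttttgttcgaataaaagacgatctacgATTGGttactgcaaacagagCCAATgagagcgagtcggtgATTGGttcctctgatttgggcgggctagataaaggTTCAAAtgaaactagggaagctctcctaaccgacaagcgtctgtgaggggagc

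These stretches lie at chr1:20820283-20820462, minus strand (Mcm3), chr1:128359676-128359855, minus strand (Mcm6), chr7:102441545-102441724, plus strand (Rrm1) and chr12:24708104-24708283, plus strand (Rrm2). The other stretches lie at chr13:100786457-100786636, minus strand (Ccnb1), chr9:70421525-70421704, minus strand (Ccnb2), chr7:135716350-135716529, minus strand (Mki67) and chr11:99024160-99024339, minus strand (Top2a). Mcm6 has TTGGCGC overlapping the reverse complement of TTCGCGC at 2 places before its start, and Ccnb2 has 3 CCAAT boxes followed by TTTGAA just past its start. In the same stretch Ccnb1 has 2 CCAAT boxes and no TTTGAA, so the B-type cyclins differ in these letters. Forms of the cell cycle homology region other than TTTGAA were not searched. Within the stretches shown, Mki67 has 2 copies of TTTGAA and Top2a has 1, while Rrm1 has an E2F-like word and Rrm2 none. Over the full windows these 2 contrasts are absent. Top2a has a further TTTGAA at -179 from its start, and Rrm2 has an E2F-like word at -235.

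All 37 genes were well above the filter. Averaged over the 18 libraries, the lowest was Ccne2 at 22.8 TPM and the highest Pcna at 327 TPM. Between libraries the genes varied unequally: the highest library was 4.48 times the lowest for Foxm1, at 35.0 to 157 TPM, and 1.25 times for Mcm6, at 138 to 173 TPM. The order of the lines differed between genes. By the mean of the control libraries, 14 genes ran from CT26 through CT26NYESO1 down to LL2, 10 from CT26NYESO1 through CT26 to LL2, and 5 from CT26 through LL2 to CT26NYESO1. The remaining 8 were lowest in CT26. Many of these neighbours do not differ beyond their spread, as the tests below show. The heat map of all 37 genes shows that Rrm1, Ccna2 and Mki67 stood high in every CT26 library and that Foxm1 was high in CT26NYESO1 and low in LL2.

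**Figure D1:**
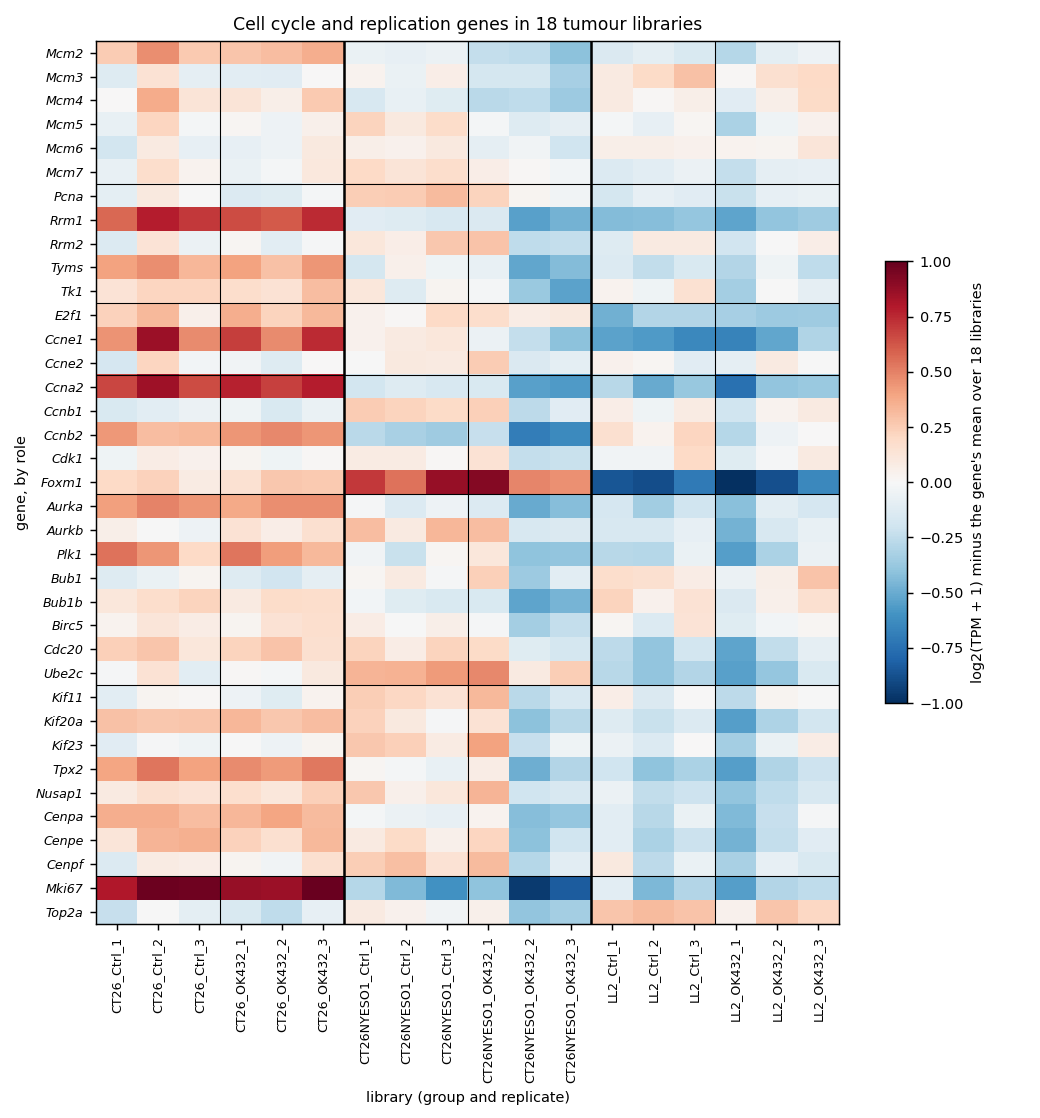
Level of each of the 37 genes (rows, grouped by role) in each of the 18 libraries (columns), as log2(TPM + 1) minus the gene's mean over all libraries; colours saturate at 1 unit. Rrm1, Ccna2 and Mki67 are high in all 6 CT26 libraries, Foxm1 is lowest in LL2, and replicates 2 and 3 of OK432-treated CT26NYESO1 tumours and replicate 1 of OK432-treated LL2 tumours are darker blue than their neighbours.

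Tumour lines were compared first in the controls, where the question was which of these genes differ between lines. Differences are on the scale log2(TPM + 1), with the standard error of the fit, and a gene was called at a limma p adjusted over all tested genes under 0.05. Between CT26NYESO1 and CT26 controls, 4 of the 37 genes were called higher and 13 lower in CT26NYESO1, where 21.1% of all tested genes were called higher and 43.9% lower. Between LL2 and CT26 controls, 2 were higher and 17 lower in LL2, against 29.1% and 39.7% of all genes. Between LL2 and CT26NYESO1 controls, 3 were higher and 14 lower in LL2, against 38.8% and 27.5%. The split into higher and lower depends on how libraries are scaled. After median-of-ratios rescaling the same 3 comparisons gave 18, 5 and 1 genes higher (30.5%, 34.3% and 32.8% of all genes) and 9, 16 and 22 lower (31.3%, 34.8% and 33%), and the median over all genes moved from -0.18 to 0.00 for CT26NYESO1 against CT26. The higher share of all calls moved from 32.5% to 49.3% there. Against the deposited scale's median of -0.18 over all genes, the 37 genes had a median of -0.03 in that comparison. Their median was -0.15 against -0.08 for LL2 and CT26, and -0.19 against 0.10 for LL2 and CT26NYESO1.

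Calls that held under every alternative tried, leaving out each library in turn included, numbered 4 of 4 higher and 9 of 13 lower for CT26NYESO1 against CT26. They numbered 1 of 2 and 15 of 17 for LL2 against CT26, and 1 of 3 and 9 of 14 for LL2 against CT26NYESO1. Those lost under at least 1 alternative were Mcm4, Plk1, Bub1b and Cenpa in the first comparison and Mcm3, Ube2c and Nusap1 in the second. In LL2 against CT26NYESO1 they were Bub1b, Top2a, Tpx2, Cenpf, Cenpe, Nusap1 and Kif20a. The same lines were compared in the treated libraries, which share the error of the fit with the controls, so that the calls are not independent of those above. There, 3 and 19 genes were called for CT26NYESO1 against CT26 (20.9% and 45.6% of all genes), 2 and 20 for LL2 against CT26 (28.9% and 40.4%), and 8 and 7 for LL2 against CT26NYESO1 (39.8% and 27.4%). All 13 genes lower in CT26NYESO1 controls and all 17 lower in LL2 controls than in CT26 controls were called lower in the treated libraries as well. For LL2 against CT26NYESO1 only 7 of the 14 genes lower in controls were called again (Mcm7, Pcna, E2f1, Foxm1, Cdc20, Ube2c and Nusap1), with all 3 of those higher. No gene was called in opposite directions. Taking all 6 libraries of each line, 15 genes lay wholly below CT26 in CT26NYESO1 (38.4% of all genes did) and 19 in LL2 (35.6%). Only Foxm1 lay wholly above CT26 in CT26NYESO1 (16.6%), and only Top2a in LL2 (25% of all genes). Between LL2 and CT26NYESO1, Mcm7, Pcna, E2f1, Foxm1 and Ube2c lay wholly lower in LL2 (5 genes, against 21.6% of all genes) and none wholly higher (33.3%).

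**Figure D2:**
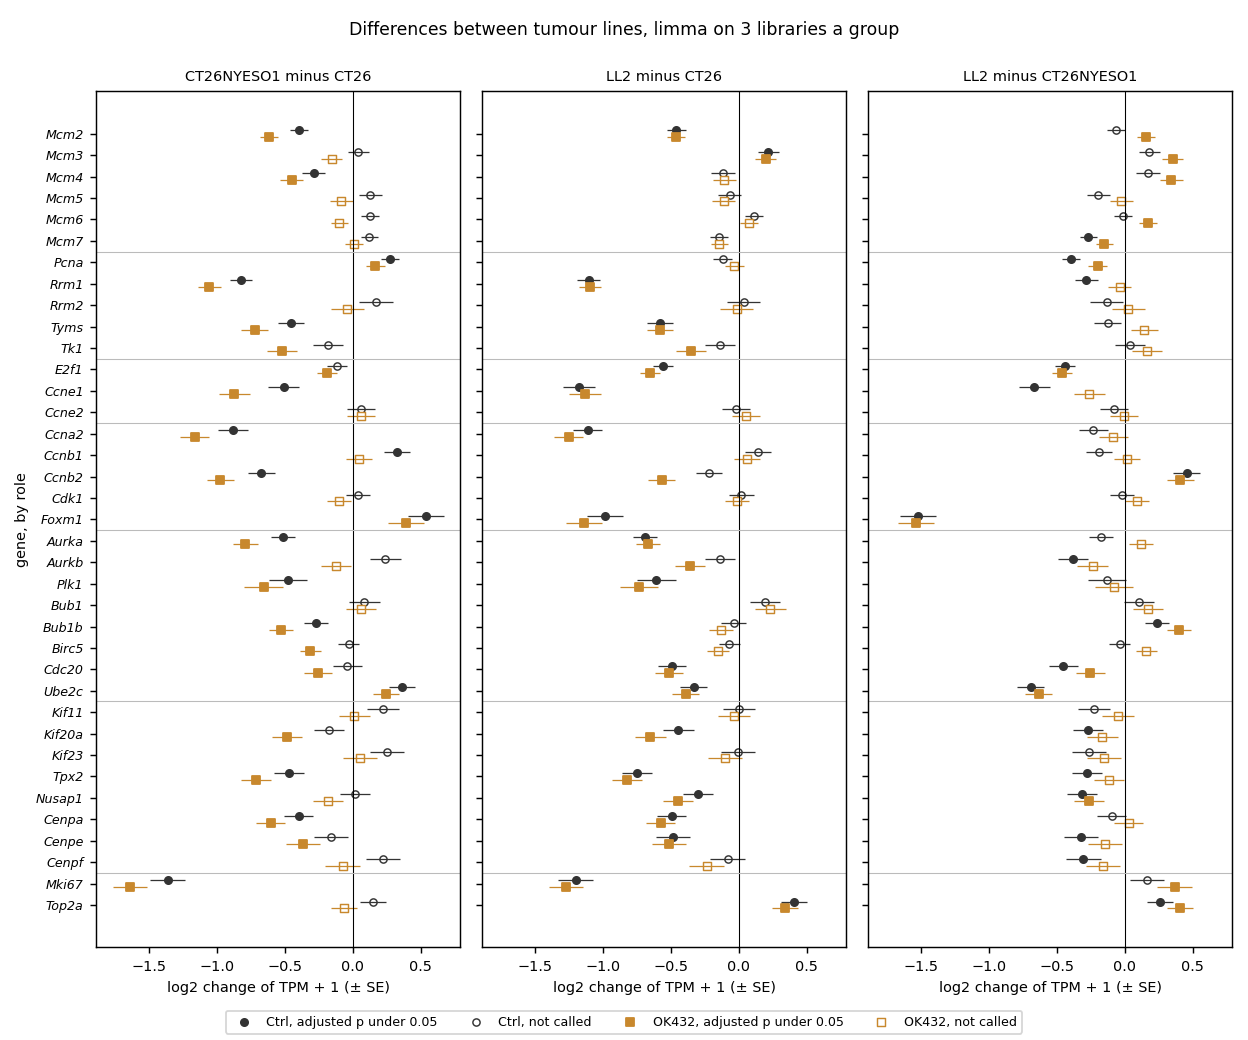
Difference between tumour lines for each gene on the scale log2(TPM + 1), with its standard error, in controls (dark circles) and in OK432-treated libraries (ochre squares); filled marks are called at an adjusted p under 0.05. Mki67, Ccna2 and Rrm1 lie far to the left in both comparisons with CT26, and Foxm1 lies at about -1.5 in LL2 against CT26NYESO1.

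The 6 subunits of the Mcm2-7 helicase differed little between lines and not all in the same direction. Mcm2 stood at 146, 169.5 and 148 TPM in CT26 controls, 117, 116 and 118 in CT26NYESO1 controls and 111, 114 and 110.5 in LL2 controls. CT26 was above both other lines without overlap, with differences of -0.40 ± 0.07 (SE) for CT26NYESO1 minus CT26 and -0.46 ± 0.07 for LL2 minus CT26 (adjusted p = 5.99e-05 and 1.07e-05). Mcm3 ran the other way, at 134, 163 and 138 TPM in CT26, 151, 140.4 and 154 in CT26NYESO1 and 156, 169 and 181 in LL2. These values overlap in part, and only LL2 minus CT26 was called, at 0.22 ± 0.08 (adjusted p = 0.0189). Mcm4 was lower in CT26NYESO1 than in CT26 (-0.29 ± 0.09, adjusted p = 0.00742), and Mcm7 lower in LL2 than in CT26NYESO1 (-0.27 ± 0.06, adjusted p = 0.00140). Mcm5 and Mcm6 were called in none of the 3 control comparisons, with differences from -0.20 to 0.13.

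Among the clamp and the nucleotide enzymes, Rrm1 carried the largest difference. Rrm1 and Rrm2 are the large and the small subunit of ribonucleotide reductase, which makes deoxynucleotides. Rrm1 stood at 224, 259.5 and 246 TPM in CT26 controls, 139, 137 and 134 in CT26NYESO1 and 111, 111 and 115 in LL2. Rrm2 stood at 144, 174 and 152 TPM in CT26, 171, 166 and 191 in CT26NYESO1 and 144, 169 and 168 in LL2. CT26 thus had about the Rrm2 level of the others and far more Rrm1. Rrm1 was lower by 0.82 in CT26NYESO1 and by 1.10 in LL2 than in CT26 (adjusted p = 1.86e-07 and 3.69e-09), whereas Rrm2 differed by 0.17 ± 0.12 and 0.04 ± 0.12 and was not called. Tyms, thymidylate synthase, was at 42.6, 44.4 and 40.6 TPM in CT26, 28.3, 33.1 and 31.1 in CT26NYESO1 and 29.0, 26.8 and 28.7 in LL2, lower in both other lines (-0.45 ± 0.10 and -0.58 ± 0.10). Pcna went the other way in CT26NYESO1, at 385, 389 and 405 TPM against 304, 348 and 324 in CT26 and 288, 308 and 301 in LL2. The CT26NYESO1 controls were above all others for Pcna (0.28 ± 0.07 against CT26, adjusted p = 0.00184). Tk1, the thymidine kinase of the salvage route, was called in none of the control comparisons (-0.18 to 0.04).

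Of the regulators of S phase onset, Ccne1 and E2f1 were lowest in LL2. Ccne1, cyclin E1, stood at 39.4, 52.3 and 39.9 TPM in CT26 controls, 29.4, 30.4 and 31.0 in CT26NYESO1 and 19.3, 18.9 and 17.8 in LL2, 3 levels without overlap. The differences were -0.51 ± 0.12, -1.18 ± 0.12 and -0.67 ± 0.12 for CT26NYESO1 minus CT26, LL2 minus CT26 and LL2 minus CT26NYESO1 (adjusted p = 9.46e-04, 1.03e-07 and 7.78e-05). Ccne2, cyclin E2, stood at 20.1, 26.5 and 22.3 TPM in CT26, 22.7, 24.4 and 24.3 in CT26NYESO1 and 23.4, 23.1 and 20.9 in LL2. It overlapped between all 3 lines and was called in none (-0.08 to 0.06). E2f1 stood at 51.1, 54.7 and 45.0 TPM in CT26, 44.7, 43.9 and 50.05 in CT26NYESO1 and 30.9, 35.4 and 35.3 in LL2, with LL2 below all other controls (-0.55 ± 0.07 against CT26, adjusted p = 4.34e-06). In the treated libraries E2f1 was also called lower in CT26NYESO1 than in CT26 (-0.19), but after median-of-ratios rescaling that difference was 0.05 and was not called.

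The cyclins of G2 and mitosis did not move as a block. Ccna2, cyclin A2, stood at 237, 269 and 235 TPM in CT26 controls, 131, 136 and 133 in CT26NYESO1 and 122, 105 and 114 in LL2. CT26 was far above both (-0.88 ± 0.11 and -1.11 ± 0.11, adjusted p = 1.83e-06 and 9.44e-08). Ccnb1, cyclin B1, was at 87.6, 90.5 and 93.3 TPM in CT26, 116, 114 and 112 in CT26NYESO1 and 102, 94.5 and 103 in LL2. Ccnb2, cyclin B2, was at 133, 121 and 123 TPM in CT26, 81.1, 77.8 and 76.0 in CT26NYESO1 and 109.5, 100.3 and 114 in LL2. The B cyclins therefore went opposite ways: CT26NYESO1 had the most Ccnb1 (0.33 ± 0.10 against CT26, adjusted p = 0.00683) and the least Ccnb2 (-0.67 ± 0.10, adjusted p = 1.23e-05). Their kinase Cdk1 was at 71.1 to 77.2 TPM in CT26, 74.0 to 77.9 in CT26NYESO1 and 71.5 to 84.4 in LL2. It differed by at most 0.04 and was not called.

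Foxm1, the transcription factor that activates many G2 and mitosis genes, had the largest difference between LL2 and CT26NYESO1 of the 37 genes. It stood at 135, 120.4 and 152 TPM in CT26NYESO1 controls, 94.7, 97.0 and 87.0 in CT26 and 45.0, 44.1 and 50.1 in LL2. With OK-432 the values were 91.5, 99.3 and 99.0 TPM in CT26, 157, 116 and 113 in CT26NYESO1 and 35.0, 44.3 and 52.2 in LL2. The order of the 3 lines was the same with and without treatment, with no overlap in either. LL2 minus CT26NYESO1 was -1.52 ± 0.13 in the controls and -1.53 ± 0.13 in the treated libraries (adjusted p = 3.63e-08 and 3.29e-08). Of the 10 genes with this order of control means, 6 were genes of G2 and mitosis, which make up 23 of the 37 genes. The order from CT26 through CT26NYESO1 to LL2 held 9 of 14, so Foxm1's order was not particular to G2 and mitosis genes. Aurkb and Ube2c had Foxm1's order without overlap as well, and the share of all genes with it was not counted. Other genes of G2 had another order: Cdk1 was called in no control comparison, and Ccnb2 was highest in CT26.

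Among mitotic kinases and checkpoint genes, Aurka and Plk1 were highest in CT26 and Ube2c in CT26NYESO1. Aurka, the Aurora A kinase of the spindle poles, stood at 98.6, 105 and 101 TPM in CT26 controls, 73.5, 67.2 and 71.5 in CT26NYESO1 and 65.6, 57.8 and 64.4 in LL2. Both lines were below CT26 (-0.52 ± 0.09 and -0.69 ± 0.09, adjusted p = 8.19e-05 and 3.00e-06). Aurkb, the kinase of the chromosomal passenger complex, was at 104, 99.2 and 96.1 TPM in CT26, 123, 106 and 125 in CT26NYESO1 and 88.7, 88.7 and 93.7 in LL2. Among the control comparisons it was called only between LL2 and CT26NYESO1 (-0.38 ± 0.11, adjusted p = 0.00694). Plk1, Polo-like kinase 1, was lower than in CT26 by 0.47 in CT26NYESO1 and by 0.61 in LL2. Ube2c and Cdc20 serve the anaphase-promoting complex, which destroys the B cyclins. Ube2c was at 197, 219.8 and 184 TPM in CT26, 251, 253 and 267 in CT26NYESO1 and 164, 150.5 and 162 in LL2, without overlap. Its difference was -0.69 ± 0.10 between LL2 and CT26NYESO1 (adjusted p = 9.28e-06), and Cdc20 was lower in LL2 than in both other lines (-0.49 and -0.45). Bub1b, the checkpoint protein BubR1, was lowest in CT26NYESO1 (-0.27 against CT26, adjusted p = 0.0134). Bub1 and Birc5 (survivin) were called in none of the 3 control comparisons, with differences from -0.07 to 0.19.

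Of the 8 spindle and centromere genes, 5 were called lower in LL2 than in CT26 controls (39.7% of all genes) and 5 lower than in CT26NYESO1 controls (27.5%), and none higher. Tpx2, an activator of Aurora A on the spindle, stood at 114, 126 and 114 TPM in CT26 controls, 87.5, 85.0 and 81.6 in CT26NYESO1 and 74.8, 65.0 and 69.1 in LL2. All 3 differences were called (-0.47 ± 0.11, -0.75 ± 0.11 and -0.28 ± 0.11). Cenpa, the histone of the centromere, was lower than in CT26 in both other lines (-0.40 and -0.49). Kif20a, Nusap1 and Cenpe were lower in LL2 than in both other lines, by 0.44, 0.30 and 0.49 against CT26. Cenpf was lower in LL2 than in CT26NYESO1 alone (-0.31, adjusted p = 0.0431). The motors Kif11, which separates the spindle poles, and Kif23, which works at the midbody, were called in no control comparison (-0.26 to 0.25).

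Mki67 and Top2a, both used as markers of cycling cells, ranked the lines differently. Mki67, the Ki-67 antigen, stood at 188, 213 and 213 TPM in CT26 controls, 88.0, 79.2 and 70.3 in CT26NYESO1 and 100.1, 78.5 and 87.8 in LL2. It was lower than in CT26 by 1.36 and 1.20, its largest differences among the 37 genes in both comparisons (adjusted p = 8.51e-08 and 3.32e-07). Top2a, the topoisomerase that untangles replicated DNA, stood at 182, 214 and 201 TPM in CT26, 229, 222 and 209 in CT26NYESO1 and 261, 268 and 261 in LL2. It was highest in LL2 (0.40 ± 0.10 against CT26, adjusted p = 0.00124). CT26 tumours thus had the highest Mki67 and, by mean, the lowest Top2a, though Top2a of CT26 and CT26NYESO1 overlapped and did not pass the test (0.15 ± 0.10, adjusted p = 0.194).

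Ratios within a library do not change when each library is scaled by 1 factor, as in median-of-ratios rescaling. They were taken after the levels had been seen and are given as a description with no test. Rrm1 over Rrm2 was 1.56 ± 0.0637 in CT26 controls (SD, n = 3), 0.781 ± 0.0683 in CT26NYESO1 and 0.703 ± 0.0584 in LL2. Mki67 over Top2a was 1.03 ± 0.0321, 0.359 ± 0.0241 and 0.338 ± 0.0458 in the same order, and Ccne1 over Ccne2 1.91 ± 0.102, 1.27 ± 0.0257 and 0.832 ± 0.0173. Ccnb1 over Ccnb2 was 0.722 ± 0.0540 in CT26, 1.45 ± 0.0200 in CT26NYESO1 and 0.927 ± 0.0163 in LL2. In the treated libraries Rrm1 over Rrm2 was 1.55 ± 0.0653, 0.762 ± 0.0525 and 0.727 ± 0.0208 and Mki67 over Top2a 1.06 ± 0.0333, 0.352 ± 0.0139 and 0.344 ± 0.0169. In both of these ratios all 6 CT26 libraries stood above all 12 others. The cyclin ratios lay wholly outside the control range in 1 line each: Ccne1 over Ccne2 was 2.05 ± 0.110, 1.06 ± 0.1004 and 0.881 ± 0.113, with treated CT26NYESO1 (at most 1.17) below its controls (1.24 to 1.29). Ccnb1 over Ccnb2 was 0.682 ± 0.0349, 1.39 ± 0.0484 and 1.06 ± 0.00176, with treated LL2 (1.06 in each library) above its controls (0.909 to 0.942).

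**Figure D3:**
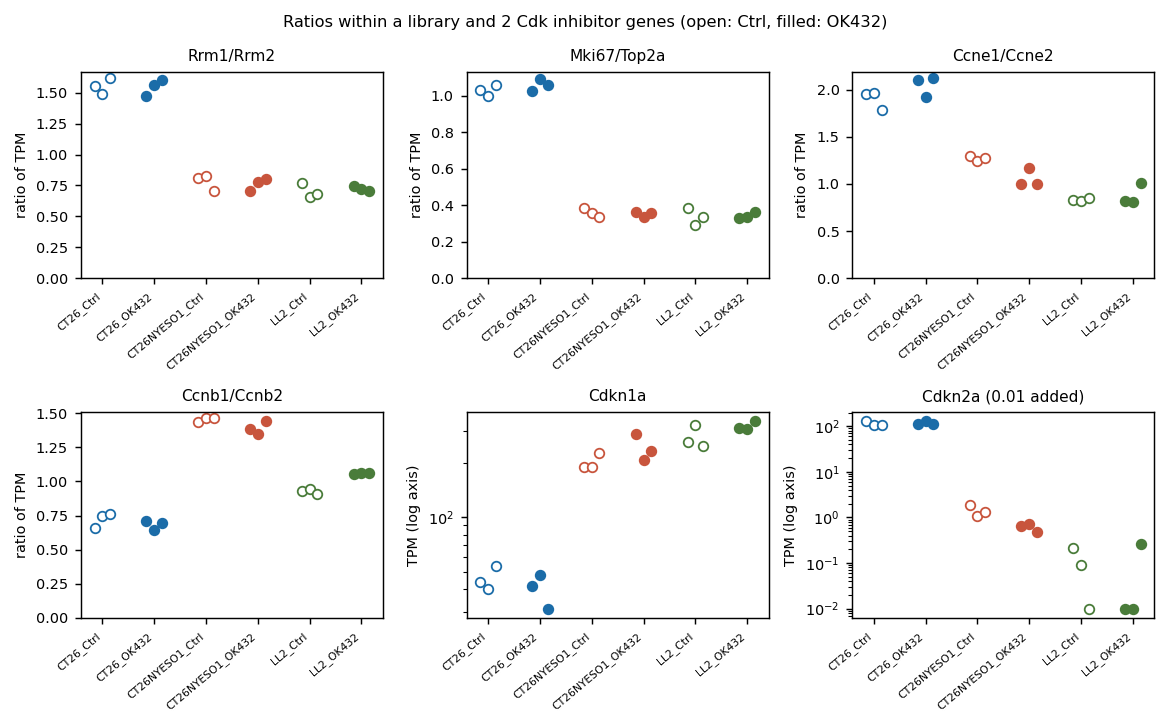
Ratio of TPM between paired genes in each library (first 4 panels, linear axes from 0) and TPM of the Cdk inhibitor genes Cdkn1a and Cdkn2a (last 2 panels, log axes, 0.01 added to Cdkn2a because some libraries list it at 0); open marks are Ctrl and filled marks OK432. The CT26 libraries stand above the others in Rrm1/Rrm2, Mki67/Top2a and Ccne1/Ccne2 and in Cdkn2a, and below them in Ccnb1/Ccnb2 and Cdkn1a.

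Other genes of the same pathways give the setting of these differences. Of 10 Cdk inhibitors and pocket proteins, 9 were tested. Cdkn1a encodes p21, the Cdk inhibitor induced by p53, and stood at 43.7, 40.3 and 53.9 TPM in CT26 controls, 189, 190.1 and 225 in CT26NYESO1 and 259, 321 and 248 in LL2. It was 2.11 and 2.56 higher in the latter lines on the log2 scale (adjusted p = 7.58e-09 and 5.47e-10). Cdkn2b, p15Ink4b, went with Cdkn2a, at 14.4 to 19.5 TPM in CT26 and at or below 1.14 TPM in the other controls. Of 12 p53 target genes, 9 were called higher and 1 lower in CT26NYESO1 than in CT26, and 10 higher and 1 lower in LL2. The shares of all genes were 21.1% and 43.9% in the first comparison and 29.1% and 39.7% in the second. Rescaled, the counts were 9 and 0, and 11 and 1. The shares of all genes after median-of-ratios rescaling were 30.5% and 31.3%, and 34.3% and 34.8%. Eda2r, a receptor gene, averaged 0.787 TPM in CT26 controls, 11.8 in CT26NYESO1 and 21.4 in LL2, and Plk2 was the gene called lower in both.

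Of 7 G1 cyclins and kinases, 3 were called higher and 2 lower in CT26NYESO1 than in CT26 controls, against the same 21.1% and 43.9% of all genes. Ccnd1, cyclin D1, the partner of Cdk4 and Cdk6, was at 548, 541 and 612 TPM in CT26NYESO1 against 183, 227 and 221 in CT26 and 258, 281 and 244 in LL2 (1.43 ± 0.07 against CT26, adjusted p = 4.38e-11). Of 41 other replication genes, 10 were called higher and 13 lower in CT26NYESO1 than in CT26, and 12 and 13 in LL2. That is 24.4% and 31.7%, and 29.3% and 31.7%, of the list, beside 21.1% and 43.9%, and 29.1% and 39.7%, of all genes. After median-of-ratios rescaling the counts were 23 and 5, and 16 and 10, beside 30.5% and 31.3%, and 34.3% and 34.8%, of all genes. Rpa3 and Pole2 were among those higher (Rpa3 by 0.84 in CT26NYESO1, Pole2 by 0.86 in LL2), and Chaf1b, a subunit of the histone chaperone of replication, was lower in both (-0.80 and -1.23). Of 65 other mitotic genes, 15 were higher and 14 lower in CT26NYESO1 than in CT26 (23.1% and 21.5% of the list), and 5 were higher and 33 lower in LL2 (7.69% and 50.8%). Rescaled, the counts were 33 and 5 in CT26NYESO1 (30.5% and 31.3% of all genes) and 8 and 29 in LL2 (34.3% and 34.8%), so the split in CT26NYESO1 depends on the scaling. Ttk, a checkpoint kinase, was lower by 1.37 in LL2 than in CT26, and Gtse1, which restrains p53 in G2, was higher by 1.02. Among 15 E2F, MuvB and Myb genes, E2f4 was lower than in CT26 in both lines (-0.82 and -0.76) and E2f8 higher (0.86 and 0.36).

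Markers of other cell types also differed between the lines. The 6 fibroblast markers summed to 6057 to 9110 TPM in CT26 controls, 1237 to 1634 TPM in CT26NYESO1 controls and 3077 to 3748 TPM in LL2 controls. The 5 endothelial markers summed to 259 to 303, 45.2 to 61.5 and 57.7 to 89.4 TPM in the same order, so CT26 was highest for both lists without overlap. The 10 markers of macrophages and monocytes summed to 2974 to 3317, 2543 to 3433 and 1472 to 1771 TPM, with CT26 and CT26NYESO1 overlapping. The part of fibroblasts, endothelial cells and macrophages in the levels of the 37 genes was not tested.

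The second question was what OK-432 did to these genes within 24 hours. In CT26 tumours nothing was called: 19 of the 37 genes had a positive and 18 a negative difference (49.5% of all genes were negative), with a median of 0.00. The range was -0.09 for Pcna to 0.12 for Aurkb. None of the 16816 tested genes was called there by limma in the main fit (0% of all genes), while 2.15% were higher and 1.94% lower at an unadjusted p under 0.05. None of the 37 genes reached that. The 12 neutrophil markers summed to 47.5 to 56.9 TPM in these controls and to 127 to 222 TPM with OK-432.

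In CT26NYESO1 tumours 36 of the 37 genes were lower with OK-432, against 55.9% of all genes. E2f1 was the exception, and none of the 37 was called. The median difference was -0.23, a level of 0.85 times the controls, against -0.02 over all genes. Among all genes, 0.41% were called higher and 0.256% lower. An unadjusted p under 0.05 was reached by 19 of the 37 genes, all lower, against 9.57% of all genes in that direction. The lowest adjusted p among the 37 was 0.103 for Mcm2, at -0.23 ± 0.07. All 3 treated libraries lay below all 3 controls for 10 genes (9.84% of all genes did so): Mcm2, Mcm3, Mcm4, Mcm5, Mcm6, Mcm7, Pcna, Ccne1, Bub1b and Birc5. For a further 26 genes replicates 2 and 3 lay below every control and replicate 1 did not, a pattern of 8.76% of all genes.

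The genes fell into 2 patterns, set by treated replicate 1. Of the 14 S phase genes, 8 were below every control in all 3 treated libraries (the 6 Mcm genes, Pcna and Ccne1). For 5 others (Rrm1, Rrm2, Tyms, Tk1 and Ccne2) only replicates 2 and 3 were, and replicate 1 was above every control for Rrm2 and Ccne2. Of the 23 G2 and mitosis genes, 2 had the first pattern (Bub1b and Birc5) and 21 the second. Mcm2 stood at 117, 116 and 118 TPM in the CT26NYESO1 controls and at 104, 103 and 92.0 in treated replicates 1, 2 and 3. Mcm3 stood at 151, 140.4 and 154 and at 130.1, 130.2 and 117 TPM, and Pcna at 385, 389 and 405 and 381, 332 and 318 TPM. All 3 treated libraries lay below the controls for these genes, though Pcna in replicate 1 did so narrowly (381 against 385 TPM in the lowest control). Of the second pattern, Kif23 stood at 82.5, 80.5 and 72.1 TPM in the controls and 90.5, 57.9 and 65.9 with OK-432, and Bub1 at 51.2, 53.5 and 49.9 and 59.7, 38.9 and 46.8 TPM. Top2a stood at 229, 222 and 209 and 222, 163 and 169.5 TPM. For these, replicate 1 was within or above the controls and replicates 2 and 3 below them.

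Set against the control mean, the 6 Mcm genes had medians of 89.2%, 89.0% and 83.3% in treated replicates 1, 2 and 3, and the 23 G2 and mitosis genes 106%, 75.3% and 79.5%. Replicate 1 exceeded every control in 13 of the 23 G2 and mitosis genes and in 2 of the 14 S phase genes, against 25.8% of all genes. Replicates 2 and 3 each lay below every control in all 23 G2 and mitosis genes, against 27.6% and 38.0% of all genes. The spread between the 3 treated libraries was accordingly wide, with a median SD of 0.23 on the log2 scale over the 37 genes against 0.06 in the controls. Without treated replicate 1, 11 of the 37 genes were called lower, against 0.761% of all genes, with Rrm1 at -0.38 (adjusted p = 0.0205), Ccnb1 at -0.41 (0.0251) and Top2a at -0.40 (0.0261). No other library left out, and no other setting, gave a call among the 37. The plot of treated libraries against control ranges shows replicate 1 apart from replicates 2 and 3 to the right of the Mcm genes.

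**Figure D4:**
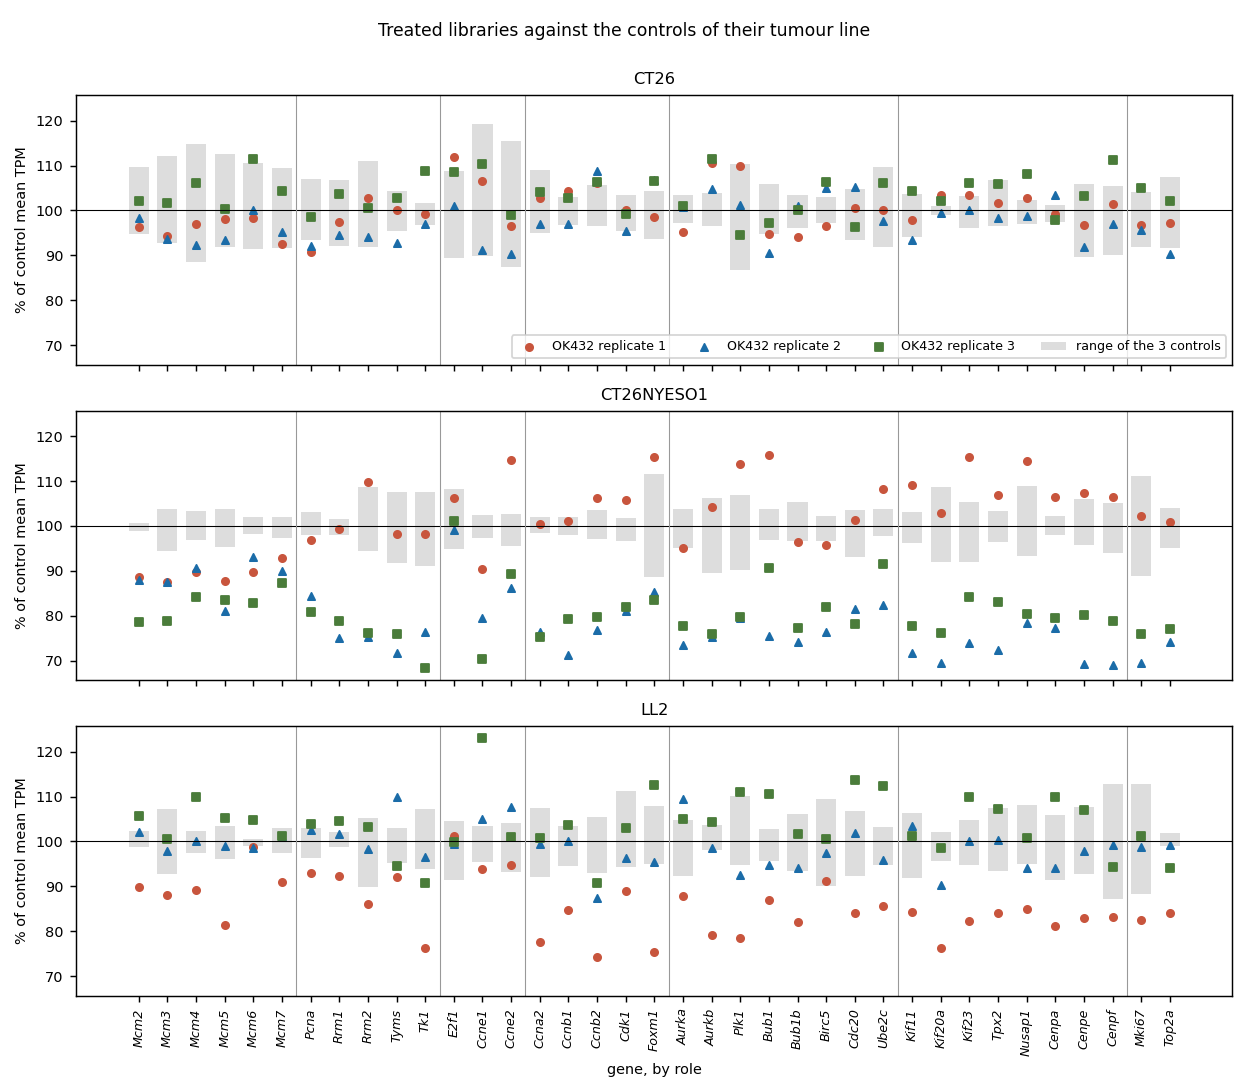
TPM of each gene in the 3 OK432-treated libraries of each tumour line as a percentage of the mean of that line's 3 controls; grey bars span the 3 controls. In CT26NYESO1 all 3 treated libraries lie below the bars for the Mcm genes, and for most other genes only replicates 2 and 3 do. In LL2 replicate 1 lies below the bars for most genes, and replicate 3 lies above them for 17 of the 37 genes (27.3% of all genes).

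Marker lists of other cells varied among these treated libraries. The 12 neutrophil markers summed to 824, 142 and 601 TPM in treated CT26NYESO1 replicates 1, 2 and 3, and to 49.4 to 70.3 TPM in the controls. The 6 markers of skeletal muscle summed to 12.1, 119 and 5.23 TPM in the same treated libraries and to 106, 4.21 and 134 TPM in controls 1, 2 and 3. The neutrophil sum was highest in replicate 1, then 3, then 2. The mean log2(TPM + 1) of the 23 G2 and mitosis genes had the same order. That of the S phase genes did not, at 6.55, 6.36 and 6.31 in treated replicates 1, 2 and 3. The muscle sum was highest in replicate 2. The part of these cells in the levels of the 37 genes was not tested.

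In LL2 tumours 32 of the 37 genes were lower with OK-432, against 54.3% of all genes. None of the 37 was called, with 0.0119% of all genes called higher and 0.00595% lower. The median difference was -0.06 against -0.01 over all genes. The largest was that of Ccnb2, at 109.5, 100.3 and 114 TPM in the controls and 80.0, 94.3 and 97.9 with OK-432 (-0.25 ± 0.10, adjusted p = 0.852). It was the 1 gene of the 37 with no overlap between the groups (5.17% of all genes were separated in that direction). Here it was treated replicate 1 that stood low: it was the lowest treated library for 35 of the 37 genes and lay below every control for 34, against 33.0% of all genes. Treated replicate 3 was the highest treated library for 29 of the 37 genes and lay above every control for 17, against 27.3% of all genes. Foxm1 stood at 45.0, 44.1 and 50.1 TPM in the controls and 35.0, 44.3 and 52.2 with OK-432, and Ccna2 at 122, 105 and 114 and 88.1, 113 and 115 TPM. The G2 and mitosis genes had medians of 83.1%, 97.8% and 104% of the control mean in treated replicates 1, 2 and 3. Muscle markers summed to 27.0, 103 and 397 TPM in these libraries, and neutrophil markers to 183, 182 and 311 TPM against 54.4 to 64.4 TPM in the controls. Their part was not tested.

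**Figure D5:**
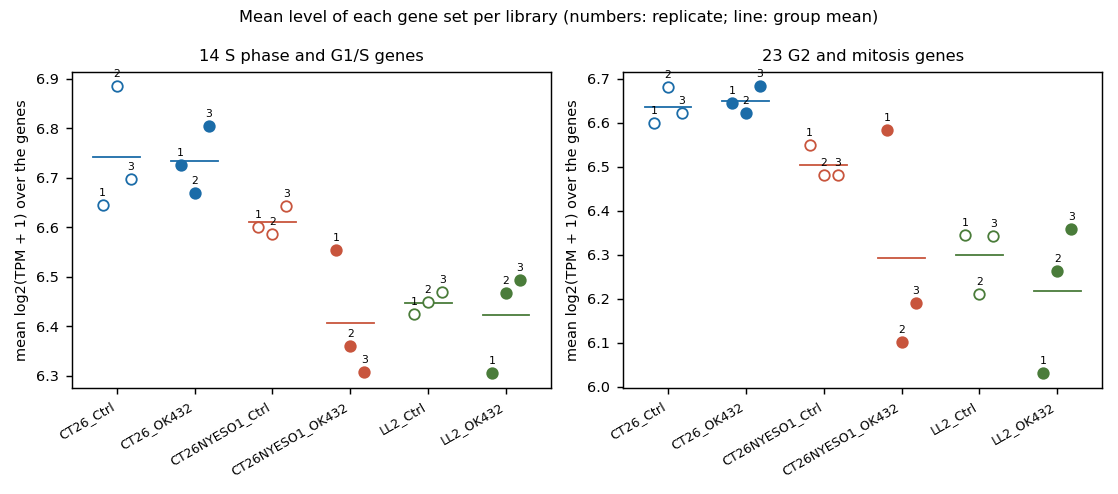
Mean log2(TPM + 1) of the 14 S phase and G1/S genes (left) and of the 23 G2 and mitosis genes (right) in each library; numbers mark replicates, lines the group means, open marks Ctrl and filled marks OK432. In treated CT26NYESO1 tumours replicate 1 lies at 6.58 for the mitotic genes and replicates 2 and 3 at 6.10 and 6.19, and in treated LL2 tumours replicate 1 is the lowest at 6.03.

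Averaged over the 3 lines with equal weight, 36 of the 37 genes were lower with OK-432, against 56.5% of all genes. None of the 37 was called, where 0.167% of all genes were called higher and 0.00595% lower. The median was -0.09 against -0.01 over all genes, and 8 of the 37 were lower at an unadjusted p under 0.05 (5.94% of all genes). By line the medians were 0.00 in CT26, -0.23 in CT26NYESO1 and -0.06 in LL2, so most of this mean came from CT26NYESO1. The effect in CT26NYESO1 minus that in CT26 was negative for 36 of 37 genes, against 55.6% of all genes. None was called among the 37 and none among all genes by limma (0%). Of all genes, 3.85% were higher and 4.99% lower at an unadjusted p under 0.05. The median difference of effects over the 37 genes was -0.21, against -0.02 over all genes. Aurkb and Ccne1 lay beyond that median, at -0.36 ± 0.16 and -0.36 ± 0.16. The effect in LL2 minus that in CT26 and minus that in CT26NYESO1 had no call among the 37 either (0% of all genes higher and 0.00595% lower in each). Whether the lines respond differently in these genes was thus not resolved at 3 libraries a group. Other replication genes followed the same direction in CT26NYESO1, with 41 of 41 lower, against 55.9% of all genes. Only 1 was called, Dut, the enzyme that clears dUTP, against the 0.256% of all genes called lower. Dut fell from 83.6, 86.0 and 85.6 to 78.3, 67.3 and 63.6 TPM (-0.29 ± 0.06, adjusted p = 0.0449). The call of Dut was lost in most alternatives, with adjusted p from 0.00627 without treated replicate 1 to 0.372 when only the groups compared were fitted, and 0.0524 and 0.113 with a replicate block. Of 65 other mitotic genes 64 were lower, beside the same 55.9% of all genes, and none was called. The mean log2(TPM + 1) of these mitotic genes was 5.563 to 5.595 in CT26NYESO1 controls and 5.199 to 5.643 with OK-432. The highest treated library thus lay above every control, and the fall was not shared by all treated libraries. Genes that vary together are not independent, so the count of 64 is not separate evidence of a fall. The Cdk inhibitors and p53 targets had no called gene with OK-432 in any line.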

How the data were processed

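Poly(A) RNA libraries of mouse tumours, 18 in all and 3 for each of 6 groups, were analysed from 1 deposited table of TPM values for 55291 genes. Per the submitters' processing notes, the authors used Trim Galore 0.6.5, STAR 2.7.3a and StringTie 2.1.2 on the mm10 genome. Read counts were not used here, so the depth behind each TPM value is unknown and no counting interval is given. TPM is relative to the rest of each library, so a change in abundant genes shifts all others.

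The 37 genes and the lists beside them were chosen with earlier results of these data known. Genes with at least 1 TPM in at least 3 libraries (16816) were fitted as log2(TPM + 1) on 6 group means with limma 3.58.1 (R 4.3.3, trend and robust, 12 residual degrees of freedom), and p was adjusted by Benjamini-Hochberg over all 16816 genes for each comparison, with a threshold of 0.05. The pseudocount of 1 understates changes of low genes. The fit was tested on simulated data. All 37 genes are named, and of each pathway list up to 2 called genes in each direction per comparison, by largest change among genes with a mean of at least 5 TPM in a group compared. Promoter windows come from RefSeq (GRCm38.p6). Tables and plots were made with Python 3.11.15, pandas 2.3.3 and matplotlib 3.10.9. Alternatives covered the pseudocount, the filter, rescaling, the variance model, array weights, a replicate block, the groups fitted and each library left out. A skeletal muscle marker score as a covariate was added after seeing the data.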

Additional observations from a re-analysis of the deposited data

How the results depend on the processing

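Of the 37 genes, none was called with OK-432 in any line or in the mean of the lines under any alternative other than leaving out treated CT26NYESO1 replicate 1, so their values there rest on few libraries, and depth is unknown for TPM. Control and treated libraries of the same replicate number correlated in their deviations from the group means at -0.12 to 0.22. Those of different number did so at -0.19 to 0.26. No pairing by number was thus seen, but 3 libraries a group are too few to exclude it. With a replicate block of 3 levels 1 gene was called with OK-432 in LL2, and with a block of 9 levels 43 genes were called in CT26NYESO1, 23 in LL2 and 98 in the mean effect. These compare with 112, 3 and 29 without a block, 0 in CT26, and 0, 1 and 1 for the effect in CT26NYESO1 minus CT26, LL2 minus CT26 and LL2 minus CT26NYESO1.

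Over all tested genes, log2(TPM + 0.1) gave 1 call with OK-432 in LL2 and 2 for the effect in CT26NYESO1 minus CT26. Without a filter there were 22, 42 and 18 calls in CT26, CT26NYESO1 and LL2, and 6, 16 and 11 for the 3 differences of effects. A mean of at least 5 TPM gave 1 in LL2, 13 for the mean effect and 1 for CT26NYESO1 minus CT26, which had 1 as well under both rescalings (median-of-ratios and quantile) and under array weights. Array weights gave 169, 5 and 56 calls in CT26NYESO1, LL2 and the mean effect, a fit without trend or robust terms 56 in CT26NYESO1, and the muscle covariate, chosen after seeing the data, 37. Fitting only the groups compared gave 4, 0 and 9 calls in the 3 lines and 1, 2 and 3 for the differences, and no separate value for the mean effect.

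Of the 37 genes, those higher in CT26NYESO1 than in CT26 controls numbered 18 after either rescaling and 8 with only the groups compared. In treated libraries they numbered 8 after either rescaling, and 1 without a filter, without trend or robust terms, or with only the groups compared. Genes of the 37 higher in LL2 than in CT26 numbered 5 and 6 after the 2 rescalings in controls and 4 and 6 in treated libraries. They numbered 1 with the muscle covariate in either, and 1 in treated libraries without a filter. Of all genes, 5771 and 6510 were higher after the 2 rescalings in controls, and 5708 and 6476 in treated libraries. Genes of the 37 higher in LL2 than in CT26NYESO1 controls numbered 1 without a filter, 1 after median-of-ratios rescaling and 5 with only the groups compared. Those lower numbered 22 after median-of-ratios rescaling, which gave 5509 of all genes higher and 5544 lower. In treated libraries that rescaling gave 5 higher and 14 lower, and 5445 and 5634 of all genes. There 4, 4 and 3 were lower without a filter, without trend or robust terms and with only the groups compared. For CT26NYESO1 minus CT26 in OK432 libraries the log2 change of E2f1 reversed, to 0.049 under median-of-ratios and 0.061 under quantile rescaling.

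Leaving out 1 library at a time gave 0 to 8 calls over all genes with OK-432 in CT26, 4 to 673 in CT26NYESO1, 1 to 15 in LL2 and 20 to 141 for the mean effect, and 0 to 99, 1 to 2 and 1 to 57 for the differences of effects. The highest of these in CT26NYESO1, the mean effect and the first and the third difference came without treated CT26NYESO1 replicate 2, and the lowest in CT26NYESO1 without treated replicate 3. Genes of the 37 called lower with OK-432 in CT26NYESO1 numbered 0 to 11 (11 without treated replicate 1, against 0.761% of all genes). Those higher in CT26NYESO1 than in CT26 numbered 4 to 7 in controls (7 without CT26 control 2 or treated CT26NYESO1 replicate 1) and 0 to 3 in treated libraries. Those higher in LL2 than in CT26 numbered 1 to 3 in both. Those higher in LL2 than in CT26NYESO1 numbered 1 to 5 in controls and 5 to 14 in treated libraries (14 without treated CT26NYESO1 replicate 1). Those lower numbered 9 to 19 in controls (9 without CT26NYESO1 control 1, LL2 control 2 or LL2 control 3) and 3 to 10 in treated libraries (3 without treated CT26NYESO1 replicate 1 or treated LL2 replicate 1). With OK-432 in CT26NYESO1, leaving out 1 library gave a log2 change of -0.0043 to 0.089 for E2f1, -0.18 to 0.017 for Ccne2 and -0.27 to 0.036 for Bub1. The cause of these changes was not tested.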
